A study of Mus musculus with 24 samples.

Results

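The genes described here code for the proteins of the cytosolic ribosome. They were taken from the deposited count table as protein-coding genes whose symbol is Rpl or Rps with a number, together with Rplp0, Rplp1, Rplp2 and Rpsa, leaving out the Rps6k kinases. The rule found 84 of the 56748 genes in the table, 52 of the large subunit and 32 of the small subunit, on 19 chromosomes. It used names only, with no measured value.

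RNA was sequenced from primary cells of the hindlimb muscles of mice under 5 days old, of the strain C57BL/10 (C57) or of its dystrophin-deficient counterpart C57BL/10-Dmdmdx (mdx). Myotubes, the multinucleate fibres that muscle precursors form in culture, received 1 µM aldosterone, a mineralocorticoid hormone, or 0.001% DMSO as vehicle for 48 h in medium with charcoal-stripped horse serum. They then spent 15 h in fresh medium, which was collected. Fibroblasts received for 24 h the conditioned medium of myotubes of their own genotype, so that for fibroblasts the genotype of the cells and that of the medium cannot be told apart, and "aldosterone" there means medium from aldosterone-treated myotubes. The 8 groups of 3 libraries are thus C57 and mdx myotubes and C57 and mdx fibroblasts, each with vehicle or aldosterone.

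A ribosome joins a large and a small subunit, each made of ribosomal RNA and many proteins of which it usually holds 1 copy. Messengers of these proteins are abundant in all growing cells, and most start with a run of pyrimidines, the 5′ TOP motif, through which the mTORC1 pathway and La-related proteins set their translation. Some of the proteins have a paralog, a second gene for a closely related protein: Rpl3l is known as the striated-muscle form of Rpl3 and Rpl10l as the testis form of Rpl10, while Rpl39l and Rpl22l1 can take the places of Rpl39 and Rpl22.

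The start-site sequences of 4 genes on which the results below turn are shown for comparison, each running from 50 bases before the RefSeq start site to 20 bases from it (RefSeq, build GRCm38.p6). Capitals mark a TOP-type run, a C followed by at least 4 pyrimidines on the sense strand between 10 bases before and 20 bases after the start. The windows lie at chr17:24727776-24727845 (plus strand, Rpl3l, the first of its 2 windows), chrX:37085203-37085272 (minus, Rpl39), chr16:10170178-10170247 (plus, Rpl39l) and chr3:28805458-28805527 (plus, Rpl22l1).
Rpl3l: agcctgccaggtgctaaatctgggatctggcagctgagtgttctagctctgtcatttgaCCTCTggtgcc
Rpl39: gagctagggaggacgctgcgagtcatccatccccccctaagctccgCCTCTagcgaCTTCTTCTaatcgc
Rpl39l: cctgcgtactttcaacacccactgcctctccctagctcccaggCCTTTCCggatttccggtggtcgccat
Rpl22l1: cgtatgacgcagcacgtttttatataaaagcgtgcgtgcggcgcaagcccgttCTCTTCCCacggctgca

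RefSeq promoter windows, from 250 bases before to 50 after a start, were matched for 64 of the 84 genes (76 windows, 10 genes with more than 1). A TOP-type run lay between 10 bases before and 20 bases after the start site in 60.5% of the members' windows and 35.8% of all 32851 windows. Such a run need not begin at the first base of the messenger. CCGGAA, the core bound by ETS factors, was found on either strand in 47.4% of the members' windows and 14.9% of all, and GGGCGG, the SP1 box, in 60.5% and 35.7%. AAGATGGC, bound by YY1, was found in 10.5% and 2.75%, CACGTG, the E-box of MYC, in 10.5% and 7.15%, and TATAAA in 9.21% and 13.6%. TGTTCT, a half-site of steroid receptors, was found in 13.2% of the members' windows and 19.0% of all. The full palindrome, AGAACA followed by 3 bases of any kind and TGTTCT, contains that half-site and was found in 0 of 76 windows of the members and in 3 of the 32851. Of the 4 genes printed, Rpl39 and Rpl39l had CCGGAA in the whole window, Rpl39 and Rpl22l1 had TATAAA, Rpl22l1 had GGGCGG and Rpl3l had TGTTCT.

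Library totals ran from 14133165 to 31144746 counts in myotubes and from 16964960 to 42698139 in fibroblasts. The labels held against marker genes: the summed level of 15 myotube genes was 28255 to 48826 CPM (counts scaled to the library's depth, the usual unit of abundance) in myotubes and 15.6 to 157 in fibroblasts, and that of 12 fibroblast genes was 423 to 5472 in myotubes and 16977 to 29587 in fibroblasts. A fibroblast gene of that list, Tcf21, was at 0 in all 24 libraries. The sum of 12 macrophage and leukocyte genes was 6.60 to 533 CPM in myotubes and 11.2 to 29.9 in fibroblasts, and that of 10 endothelial genes 70.1 to 295 and 61.2 to 82.2. Mitochondrially encoded genes took 5.48% to 9.86% of counts in myotubes and 1.48% to 1.97% in fibroblasts. Levels below are CPM scaled by TMM factors over the 24 libraries, and these factors were 0.889 to 0.979 in myotubes and 1.037 to 1.114 in fibroblasts. In such bulk samples fewer cells of a type and less RNA per cell cannot be told apart.

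Ribosomal protein genes were mostly abundant in the cultures, though they were not ranked here against other genes. Compared per length by the deposited FPKM in C57 vehicle myotubes, their median was 200.2, with 9 genes over 500, 54 between 100 and 500 and 10 under 50. The highest were Rplp1, a protein of the acidic stalk that recruits translation factors, at 1704 FPKM, Rps3a1 at 901, Rplp0, which anchors the stalk, at 872, Rps15 at 742 and Rpl36 at 649. The lowest with counts were Rpl36al at 0.438, Rpl3l at 0.761, Rps10 at 1.04, Rpl39l at 1.36 and Rpl13a at 10.1. Rpl10l had no count in any of the 24 libraries, 0 of 593142185 counts, which allows a level of up to 0.00506 CPM before scaling.

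Several of the low values are uncertain, as ribosomal protein genes have many processed pseudogenes and some overlap other annotated genes. For 63 members the table holds pseudogenes named after them, 322 in all, of which 218 had a count, and together these took 0.137% to 0.191% of the counts of a library. Rps10 had 2286 counts over all libraries while its 4 named pseudogenes had 61664. For Rpl17 the pseudogenes' counts were 169% of the gene's own, for Rpl21 73.2% and for Rps12 50.4%. The labels and processing notes do not say how reads that match several copies were counted. The kit did not keep strand, and 48 members overlap another annotated gene, 18 of them a protein-coding one. Rpl13a, Rps10 and Rpl36al each overlap a same-strand protein-coding gene with 0 counts (Gm45713, Gm49804 and Gm49383). Rpl24 overlaps a same-strand long non-coding gene, Gm28037, also with 0. How reads in such overlaps were counted is not given either, and their part in the low values was not tested.

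Across the 8 group means most members moved little. The fold between the highest and the lowest group had a median of 1.40 over 83 members, lay under 1.5 for 60 of them and under 2 for 78, and was lowest for Rps19 at 1.16. The 5 members above 2 were Rpl3l, Rpl39l at 7.06, Rps10 at 3.23, Rpl36al at 2.07 and Rps27a, which is made as a fusion with ubiquitin, at 2.03. For Rpl3l the lowest group, mdx vehicle fibroblasts, had 2 counts, both in replicate 2, and its ratio to mdx vehicle myotubes is given below with its counting interval.

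Together the members took between 2.92% and 3.86% of the counts of every library. The share was 2.92%, 3.44% and 3.36% in C57 vehicle myotubes (3.24% ± 0.279, SD, n = 3) and 3.17%, 3.86% and 3.27% with aldosterone (3.44% ± 0.373). It was 3.81%, 3.41% and 3.20% in mdx vehicle myotubes (3.47% ± 0.313) and 3.75%, 3.75% and 3.23% with aldosterone (3.58% ± 0.298). All 4 myotube groups overlapped one another.

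In fibroblasts the share was 3.20%, 3.03% and 3.14% in the C57 vehicle group (3.12% ± 0.0857) and 3.33%, 3.31% and 3.38% with aldosterone medium (3.34% ± 0.0343). In mdx fibroblasts it was 3.41%, 3.53% and 3.79% (3.58% ± 0.196) and, with aldosterone medium, 3.32%, 3.70% and 3.83% (3.62% ± 0.267). The C57 vehicle fibroblasts lay below the C57 aldosterone and the mdx vehicle fibroblasts with no overlap, by 0.218 and 0.455 percentage points, each at p = 0.1, the smallest a two-sided exact permutation test of 3 against 3 can give. Both differences rest on the same 3 vehicle libraries. The other 10 of the 12 comparisons of the share had two-sided exact permutation p-values from 0.215 to 0.9. Between cell types the difference was 0.119 points in C57 (higher in myotubes, p = 0.5) and -0.107 in mdx (p = 0.7, exact permutation tests). The mdx difference turned to 0.0760 when mitochondrially encoded genes were left out of the total. It also turned with TMM scaling, on which the members' summed level was 36536 CPM in mdx vehicle myotubes and 32830 in mdx vehicle fibroblasts. In C57 these sums were 34661 and 28971 CPM, with every myotube library above every fibroblast library. Counts of the large subunit were 1.356 to 1.416 times those of the small subunit over all libraries.

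**Figure D1:**
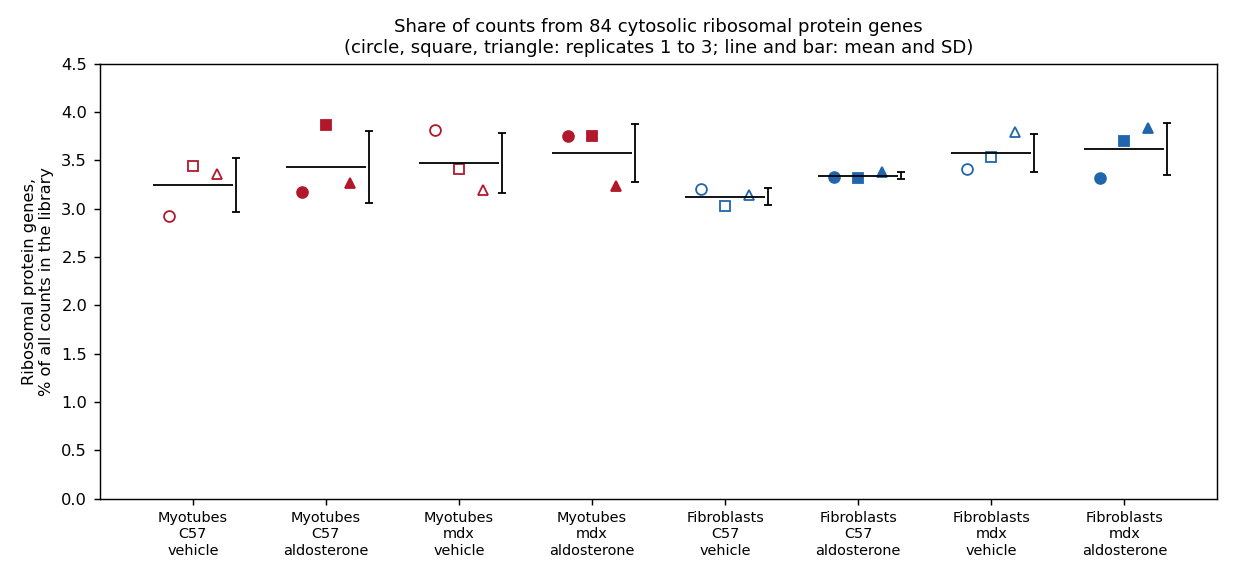
Share of all counts (percent, vertical axis from 0) taken by the 84 ribosomal protein genes in each of the 24 libraries, by group; symbols are replicates 1 to 3 (open for vehicle, filled for aldosterone), lines the mean and bars the SD. Libraries span 2.92% to 3.86%, and the 3 C57 vehicle fibroblast libraries lie below all other fibroblast libraries.

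Many single ribosomal protein genes differed between the cell types. In vehicle-treated C57 cells 46 of 83 members were higher in myotubes and 6 lower by edgeR's quasi-likelihood test at an adjusted p below 0.05, where 36.7% of the 17864 genes tested were higher and 38% lower. In mdx cells 34 were higher and 5 lower (35.5% and 35.1% of all genes). The median log2 difference of the members, myotubes minus fibroblasts, was 0.27 in C57 and 0.19 in mdx, beside -0.03 and -0.02 over all genes. These splits depend on scaling: with library totals in place of TMM factors 20 were higher and 12 lower in C57, with a median of 0.07 where all genes had -0.23, and 8 higher and 14 lower in mdx, with a median of -0.0030 where all genes had -0.21. With upper quartile scaling mdx gave 24 higher and 9 lower. There were 33 members higher in both genotypes, 4 lower in both (Rpl13a, Rpl22l1, Rpl7l1 and Rps10) and none that went opposite ways.

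Rpl27, a protein of the large subunit, was 365, 435 and 438 CPM in C57 vehicle myotubes and 252, 220 and 234 in C57 vehicle fibroblasts, with no overlap (log2 difference 0.81 ± 0.096, SE, adjusted p = 1.43e-07). It was 432, 451 and 443 in mdx myotubes and 243, 268 and 286 in mdx fibroblasts (0.73, adjusted p = 7.21e-07). Rps20, of the head of the small subunit, was 590, 632 and 633 CPM in C57 myotubes and 291, 382 and 389 in C57 fibroblasts (0.81 ± 0.119, adjusted p = 3.10e-06). Both genes were thus well above the fibroblasts in every myotube library. Rpl35 (0.67 in C57, 0.56 in mdx) and Rpl22 (0.56 and 0.41) were also higher, and these 4 genes stayed higher at an adjusted p below 0.05 under each of the 12 alternatives per genotype.

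The genes lower in myotubes were mostly low-level ones. Rpl13a, known also as part of the GAIT complex that represses inflammatory messengers, was 19.0, 22.2 and 21.8 CPM in C57 vehicle myotubes and 30.5, 26.4 and 27.8 in fibroblasts (log2 difference -0.43, adjusted p = 0.000856). Rps10 was 2.15, 2.58 and 2.40 against 4.83, 3.72 and 4.31 (-0.85, adjusted p = 0.000670), with the reads on its pseudogenes as given above. Rpl13a and Rps10 also carry the doubt named above on overlapping genes. Rpl13a, Rps10 and Rpl22l1 stayed lower under the same alternatives in both genotypes. Among other genes of the pathway, 73 of 77 mitochondrial ribosomal protein genes, which build the separate ribosome of mitochondria, were higher in C57 myotubes and none lower (median 0.82; 72 in mdx), where 36.7% of all genes were higher and 38% lower in C57. Of 40 genes for ribosome assembly and rRNA synthesis 18 were higher and 7 lower in C57, a share higher that is near that of all genes, and of 17 translation factors with a TOP messenger 12 were higher and 2 lower. Fau, which codes for a ubiquitin-like protein fused to the small-subunit protein eS30, was higher (0.53, adjusted p = 0.000111). For Rack1, a small-subunit part also outside the name rule, the difference was -0.08 (adjusted p = 0.385).

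**Figure D2:**
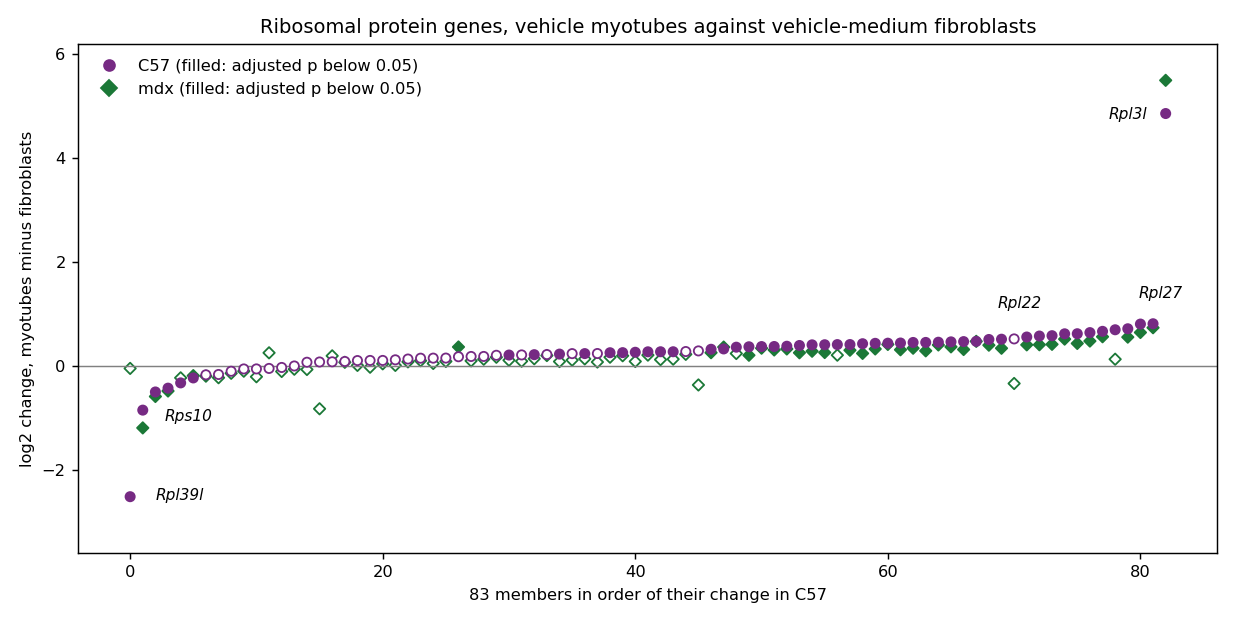
Log2 difference, vehicle myotubes minus vehicle-medium fibroblasts (vertical axis), of the 83 tested ribosomal protein genes ordered by the C57 value (horizontal axis); circles are C57, diamonds mdx, and filled symbols have an adjusted p below 0.05. Most genes lie above 0 with TMM scaling, fewer with library totals, Rpl3l stands far above the rest (4.86 in C57, 5.50 in mdx) and Rpl39l is lowest in C57 (-2.52) but near 0 in mdx (-0.05).

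Rpl3l was a myotube gene in these cultures, at a low level. It lies on chromosome 17 (24946794 to 24955117, plus strand, mm39). Its level was 0.979, 2.00 and 0.726 CPM in C57 vehicle myotubes, 0.640, 1.75 and 0.678 with aldosterone, 0.440, 1.20 and 2.14 in mdx vehicle myotubes and 0.327, 0.899 and 2.51 with aldosterone. The 12 fibroblast libraries were between 0 and 0.100 CPM, all below the lowest myotube library. Over the 3 libraries of a group 90 counts in C57 vehicle myotubes stood against 4 in fibroblasts, a ratio of depth-scaled counts of 30.9 (95% interval 11.7 to 115.9). The ratio was 36.9 with aldosterone (72 and 2 counts, 9.84 to 310), 41.0 in mdx vehicle cells (57 and 2, 10.8 to 347) and 17.5 in mdx aldosterone cells (60 and 6, 7.60 to 49.6). These intervals cover counting error only. The edgeR test gave adjusted p = 4.93e-05 in C57 and 7.13e-05 in mdx.

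Per length Rpl3l was only 0.241% to 0.339% of Rpl3, the mean over the libraries of a myotube group. Within myotubes its levels differed more between libraries of a group than between groups: mdx minus C57 was -0.10 on the log2 scale with vehicle (adjusted p = 0.970) and 0.24 with aldosterone (adjusted p = 0.905). Over the 12 myotube libraries the protein-coding genes most like it, by Pearson correlation of log2(CPM + 0.5) among 12348 candidates, were Rdm1 (0.93), Snapin (0.89), Cox7a1 (0.88), Slitrk4 (0.86) and Nrbp2 (0.85). Same-numbered libraries of a genotype deviated together, so the 12 are not all independent, and Rpl3l had only 5 to 59 counts in each. The values describe likeness only.

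Rpl39l varied between cell types and genotypes, and its values carry the doubt named above on reads that match several copies, here Rpl39 and Rpl39l. It lies on chromosome 16 (9988090 to 9992775, plus strand, mm39), and Rpl39, its partner, on X. It was 0.187, 1.29 and 1.89 CPM in C57 vehicle myotubes, 0.480, 1.32 and 1.76 with aldosterone, 3.76, 6.28 and 1.45 in mdx vehicle myotubes and 4.37, 9.25 and 2.57 with aldosterone. In fibroblasts it was 5.45, 6.92 and 6.18 (C57 vehicle), 7.78, 7.74 and 8.23 (C57 aldosterone medium), 4.28, 2.85 and 4.87 (mdx vehicle) and 4.03, 3.07 and 3.31 (mdx aldosterone medium). By group mean C57 myotubes were thus the lowest and C57 fibroblasts the highest, with the mdx cells of both kinds between them. The mdx myotube libraries spread widely and overlapped both kinds of mdx fibroblast.

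In C57 vehicle cells Rpl39l was lower in myotubes by a log2 difference of -2.52 ± 0.56 (SE, adjusted p = 0.000511), and in mdx vehicle cells the difference was -0.05 (adjusted p = 0.936). Among fibroblasts with aldosterone medium it was lower in mdx than in C57, by -1.21 ± 0.19 on the log2 scale (adjusted p = 0.00361), the single member called there, where 0.636% of all genes were lower. Under 12 alternatives this value ran from -1.33 to -1.11 with adjusted p from 1.55e-08 to 0.0242. With vehicle medium the fibroblast groups did not overlap either, with a difference of -0.64 (adjusted p = 0.131). In myotubes the mdx minus C57 difference was 1.80 with vehicle (adjusted p = 0.330) and 2.15 with aldosterone (adjusted p = 0.235, no overlap). By edgeR, the genotype difference in myotubes minus that in fibroblasts was 2.47 with vehicle (adjusted p = 0.179) and 3.35 ± 0.74 with aldosterone (adjusted p = 0.0585), which misses the threshold.

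In myotubes the summed level of the 12 fibroblast markers is set here beside that of Rpl39l. It was 423, 1378 and 954 CPM in C57 vehicle, 528, 910 and 1018 in C57 aldosterone, 1552, 5098 and 1890 in mdx vehicle and 1294, 5472 and 2658 in mdx aldosterone myotubes, with Tcf21 at 0 in all and Lum at 0 in some. Every mdx library was above every C57 library of the same treatment for the markers. For Rpl39l this held with aldosterone, while the genotypes overlapped with vehicle. Replicate 2 was the highest of both mdx groups for the markers and for Rpl39l. The full order of the 3 libraries of a group was the same for both only in C57 aldosterone myotubes. The part of these markers in the myotube values was not tested. Per length Rpl39l was 0.763% ± 0.579 of Rpl39 in C57 vehicle myotubes and 5.80% ± 0.68 in C57 vehicle fibroblasts (SD, n = 3), so that Rpl39 was by far the more abundant messenger in all groups.

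The other paralogs gave a mixed picture. Rpl22l1 was 9.68% ± 0.154 of Rpl22 per length in C57 vehicle myotubes and 20.2% ± 2.24 in C57 vehicle fibroblasts, with Rpl22 higher and Rpl22l1 lower in myotubes. Rpl7l1, which acts in ribosome assembly, was 7.76% ± 0.363 and 10.8% ± 0.184 of Rpl7. Rps27l, known as a p53 target, reached 77.1% ± 5.92 of Rps27 in C57 vehicle myotubes and 131.6% ± 45.1 in mdx vehicle myotubes (107%, 104% and 184%). In vehicle fibroblasts the ratio went the other way, with means of 130% in C57 and 112% in mdx. The level of Rps27l itself was 96.0, 122 and 111 CPM in C57 and 153, 142 and 128 in mdx vehicle myotubes, without overlap (log2 difference 0.35, adjusted p = 0.319). Rpl36al was 0.274% to 0.694% of Rpl36a, with the doubt named above on its overlap with another gene.

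**Figure D3:**
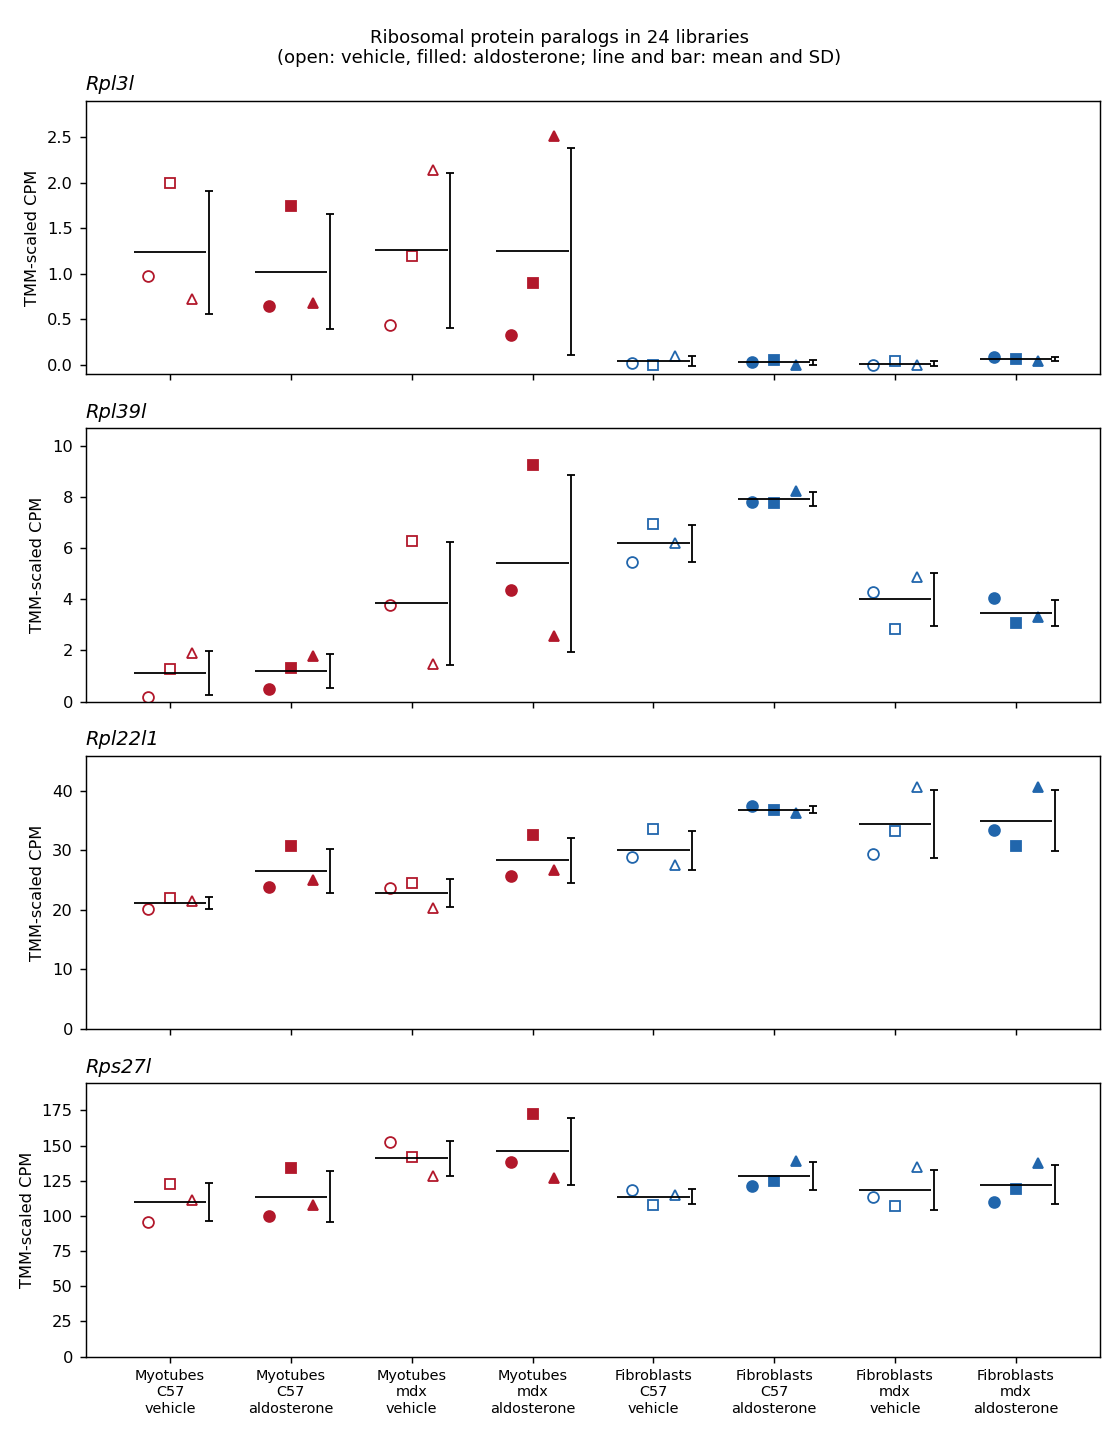
Levels of Rpl3l, Rpl39l, Rpl22l1 and Rps27l in the 24 libraries (TMM-scaled CPM, linear vertical axes), by group; symbols are replicates 1 to 3 (open for vehicle, filled for aldosterone), lines the mean and bars the SD. Rpl3l is at 0.327 CPM or more in each myotube library and 0.100 or less in each fibroblast library, and Rpl39l has its lowest group means in C57 myotubes.

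To see whether aldosterone itself changed these messengers, treated and vehicle myotubes were compared within each genotype. Without pairing, 0 of 83 members passed in C57, where 0.0127% of genes did. Of these members 3 had an unadjusted p below 0.05, 74 had a positive difference and the median log2 difference was 0.12 beside 0.0091 over all genes. In mdx 0 passed (0% of genes; 1 at an unadjusted p below 0.05), 69 were positive and the median was 0.04. DESeq2 also called 0 in either genotype. For mdx the median over all genes is not given here, so the 69 were not set against a shift from scaling. In C57, 14 members had no overlap with higher levels (6.83% of all genes) and 1 with lower levels (7.54%).

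Same-numbered vehicle and treated myotube libraries deviated together (r = 0.359 to 0.704), so the comparison was also made within pairs. For C57 vehicle libraries 2 and 3 the pairing is less sure, as r was 0.495 and 0.359 with the same number and 0.350 and 0.256 with the best other. Counts of these libraries were also more alike than those of any other myotube libraries of a group (chi-square per gene 4.91 against 21.95 to 48.2). Within pairs 6 members rose in C57 myotubes, where 2.52% of genes did, and 0 fell (2.46% of genes). Among them were Rps28 (log2 change 0.23, adjusted p = 0.0159), Rps4x (0.25, 0.0180), Rpl22l1 (0.34, 0.0208), Rps26 (0.23, 0.0396) and Rplp2 (0.19, 0.0451), each higher in 3 of 3 pairs. In mdx 0 were called within pairs (5 at an unadjusted p below 0.05, and 2.33% of genes called). As a mean over both genotypes 7 rose, where 4.4% of genes did, and 0 fell (4.56% of genes). Without pairing 0 of 83 were called for the mean by edgeR (2 at an unadjusted p below 0.05; DESeq2 0), where 0.216% of genes were. The difference between the genotypes' responses was called for 0 members by edgeR, without pairing (0% of genes; 0 members at an unadjusted p below 0.05) and within pairs (0.0444%; 4 members), so no difference between C57 and mdx was shown.

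Rpl22l1 had the smallest adjusted p for the mean. It was 20.1, 21.9 and 21.4 CPM in C57 vehicle myotubes and 23.8, 30.7 and 25.1 with aldosterone, and 23.7, 24.5 and 20.2 in mdx vehicle myotubes and 25.6, 32.6 and 26.7 with aldosterone. Each treated library was above its pair, 6 of 6. The mean log2 change was 0.32 ± 0.062 (SE, adjusted p = 0.00135 within pairs; 0.291 without pairing). Leaving out any 1 of the 6 pairs gave 0.26 to 0.37 with adjusted p between 0.00151 and 0.0168. Per length its ratio to Rpl22 had a mean of 9.68% with vehicle and 11.97% with aldosterone in C57, and of 10.6% and 13.0% in mdx.

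Rps4x, the X-linked small-subunit protein, was 691, 721 and 691 CPM in C57 vehicle myotubes and 788, 969 and 747 with aldosterone, and its mean log2 change over both genotypes was 0.17 (adjusted p = 0.0156, 6 of 6 pairs). Rps2 rose by 0.16 (adjusted p = 0.0215) in 6 of 6 pairs. Rps26 (0.17), Rps28 (0.14) and Rpl30 (0.16) rose in 5 of 6 pairs, with adjusted p from 0.0236 to 0.0487. These calls rest on single pairs. In C57 the count was 0 without pair 2, 1 without pair 1 and 11 without pair 3, and for the mean it was between 1 and 15, and 1 without mdx pair 2 or mdx pair 3.

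The pairs differed in how many members were higher with aldosterone: 70, 76 and 27 of 83 in C57 pairs 1, 2 and 3, with median log2 changes of 0.14, 0.25 and -0.04, and 30, 75 and 59 in the mdx pairs, with -0.02, 0.11 and 0.04. Pair 2 was thus the highest in both genotypes. Macrophage markers were 533 and 313 CPM in C57 vehicle libraries 2 and 3 and 417 and 240 with aldosterone, but 15.2 and 14.5 in pair 1, and their part in these changes was not tested. The share of counts was higher with aldosterone in 4 of 6 pairs (mean 0.149 points, two-sided exact sign-flip permutation p = 0.219).

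**Figure D4:**
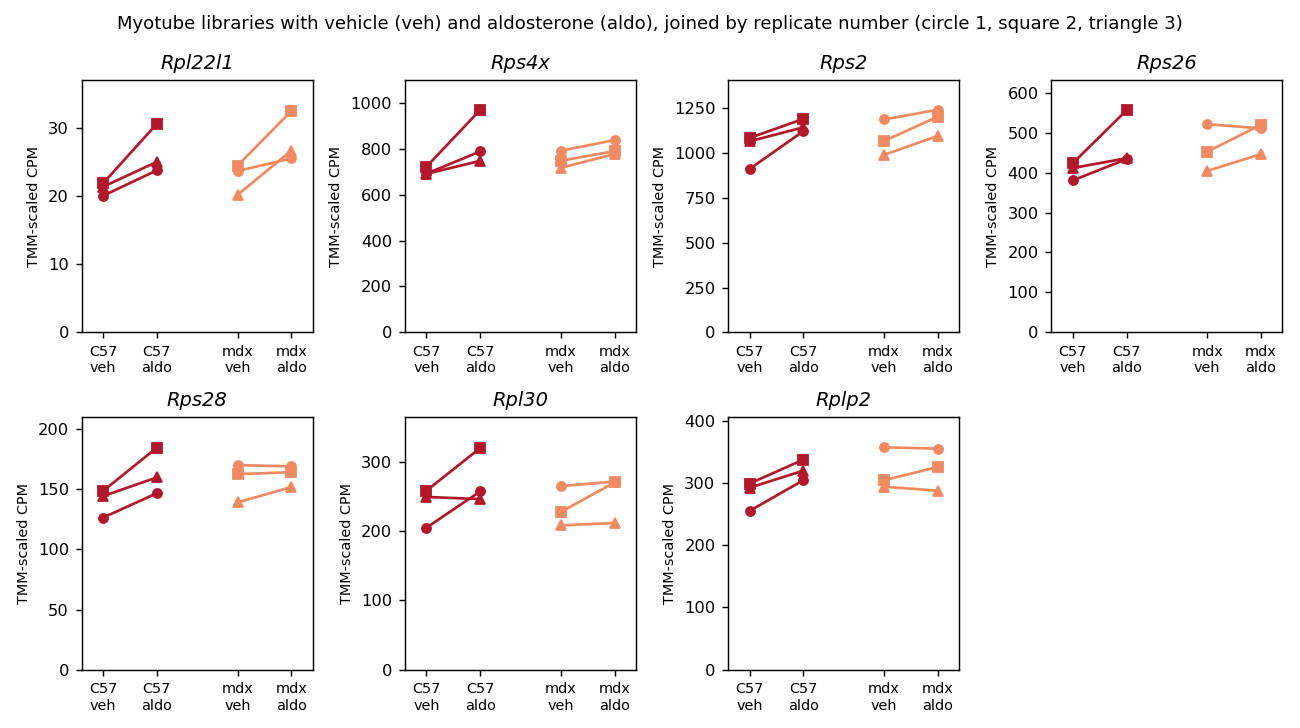
Levels of 7 of the ribosomal protein genes called within pairs (TMM-scaled CPM, vertical axes from 0) in myotubes with vehicle and aldosterone; lines join libraries of 1 genotype and replicate number, and symbols mark replicates 1 to 3. Rpl22l1, Rps4x and Rps2 are higher with aldosterone in 6 of 6 pairs.

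Other genes of ribosome production were called within the same pairs. As a mean over both genotypes, 9 of 40 assembly and rRNA synthesis genes rose and 0 fell, where 4.4% of all genes rose and 4.56% fell, among them Nop58, a core protein of the small nucleolar RNPs that guide rRNA methylation (0.23, adjusted p = 0.000588, 6 of 6 pairs). Of 17 TOP-messenger translation factors 4 rose, with Npm1 at 0.17 (adjusted p = 0.00849) and Pabpc1, the poly(A)-binding protein, at 0.15 (0.0248). Of 22 genes that control these messengers 6 rose, with Myc, the transcription factor that drives ribosome production, at 0.32 (adjusted p = 0.000114, 6 of 6 pairs). Of 77 mitochondrial ribosomal protein genes 0 rose and 1 fell. Genes that fell are not counted here for the lists of 17 and 22. The calls on these lists were not repeated with a pair left out. Without pairing 0.216% of all genes were called in this comparison, and 0 of the genes on these 4 lists by edgeR (9 of the 40 assembly genes, 2 of 17, 2 of 22 and 2 of 77 at an unadjusted p below 0.05).

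Genotype alone gave no called member in myotubes. With vehicle, 67 of 83 members were higher in mdx, with a median log2 difference of 0.07; 0 passed (3 at an unadjusted p below 0.05; DESeq2 0), where 0.362% of genes did. With aldosterone 28 were higher, with a median of -0.03; 0 passed (4 at an unadjusted p below 0.05; DESeq2 0), where 0.311% of genes did, and scaling by library totals turned that median to 0.05, where all genes had 0.06. For neither treatment is the median over all genes with TMM factors given here. The direction of the 67 and of the 28 was thus not set against a shift from scaling. The C57 and mdx libraries came from different cultures, so no pairing was available here. The smallest p-values with vehicle were those of Rps27l, Rps12 (0.32, adjusted p = 0.330) and Rpl39l.

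In fibroblasts the medium of aldosterone-treated myotubes gave small differences, mostly positive in C57. There 79 of 82 members had a positive difference, with a median log2 difference of 0.13 beside -0.0021 over all genes. No member passed (0% of genes did; 12 members at an unadjusted p below 0.05; DESeq2 0). In 53 members every aldosterone library was above every vehicle library, where 10.9% of all genes were, and in 0 below (10.6%). Rplp0 was 1312, 1311 and 1375 CPM with vehicle and 1528, 1466 and 1530 with aldosterone medium (0.18 ± 0.062, adjusted p = 0.351), and Rpl10a (0.18) had the same adjusted p. These members vary together between libraries, and the 53 are not separate observations.

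In mdx fibroblasts 60 of 82 had a positive difference with a median of 0.03, and 0 passed (0% of genes; 1 member at an unadjusted p below 0.05; DESeq2 0). The median over all genes is not given here for mdx, so the 60 were not set against a shift from scaling. Rplp0 was 1463, 1565 and 1639 CPM with vehicle and 1701, 1580 and 1729 with aldosterone medium, which overlap. As a mean over both genotypes 0 members passed in edgeR (0.012% of genes; 14 members at an unadjusted p below 0.05) and 2, Rplp0 and Rpsa, in DESeq2. The difference between the genotypes' responses was called for 0 of 82 members by edgeR (0% of genes; 1 member at an unadjusted p below 0.05).

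The clearest tendency among fibroblasts was with genotype under vehicle medium. In mdx fibroblasts 80 of 82 members were higher than in C57, with a median log2 difference of 0.18 beside 0.0045 over all genes, and 43 had an unadjusted p below 0.05. None passed after adjustment in edgeR, where 1.1% of genes did, and 13 did in DESeq2 (12 higher, 1 lower). In 41 members every mdx library was above every C57 library, where 7.35% of genes were, and in 1, Rpl39l, below (9.51%). Members vary together between libraries, so the 80, the 43 and the 41 are not separate observations. Rps4x was 666, 656 and 681 CPM in C57 and 746, 786 and 835 in mdx fibroblasts (0.25 ± 0.056, adjusted p = 0.0516). Rpl11, which also binds Mdm2 when ribosome assembly fails, was 264, 270 and 275 against 315, 310 and 366 (0.30 ± 0.077, adjusted p = 0.0803). Both genes were higher in each of the 3 mdx libraries.

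Rps27a was 136, 184 and 109 CPM in C57 and 278, 271 and 242 in mdx vehicle fibroblasts, with the largest positive difference among the members (0.88 ± 0.26, adjusted p = 0.191). With aldosterone medium it was 118, 213 and 135 against 247, 292 and 212, which overlap, and it varied widely in myotubes too, from 146 to 426. Of the 17 TOP-messenger translation factors 9 had an unadjusted p below 0.05 and 0 passed. Of 40 assembly genes 1 did and 0 passed. The same 3 C57 vehicle libraries serve as controls here and in the aldosterone comparison of C57 fibroblasts.

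With aldosterone medium 68 of 82 members were higher in mdx fibroblasts, with a median of 0.09, 13 at an unadjusted p below 0.05, and 1 passed, Rpl39l, which was lower (1.23% of genes passed in either direction). Here too the median over all genes is not given, and the 68 were not set against a shift from scaling. Rps4x was 715, 707 and 726 CPM in C57 and 804, 864 and 868 in mdx (0.23, adjusted p = 0.0645).

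**Figure D5:**
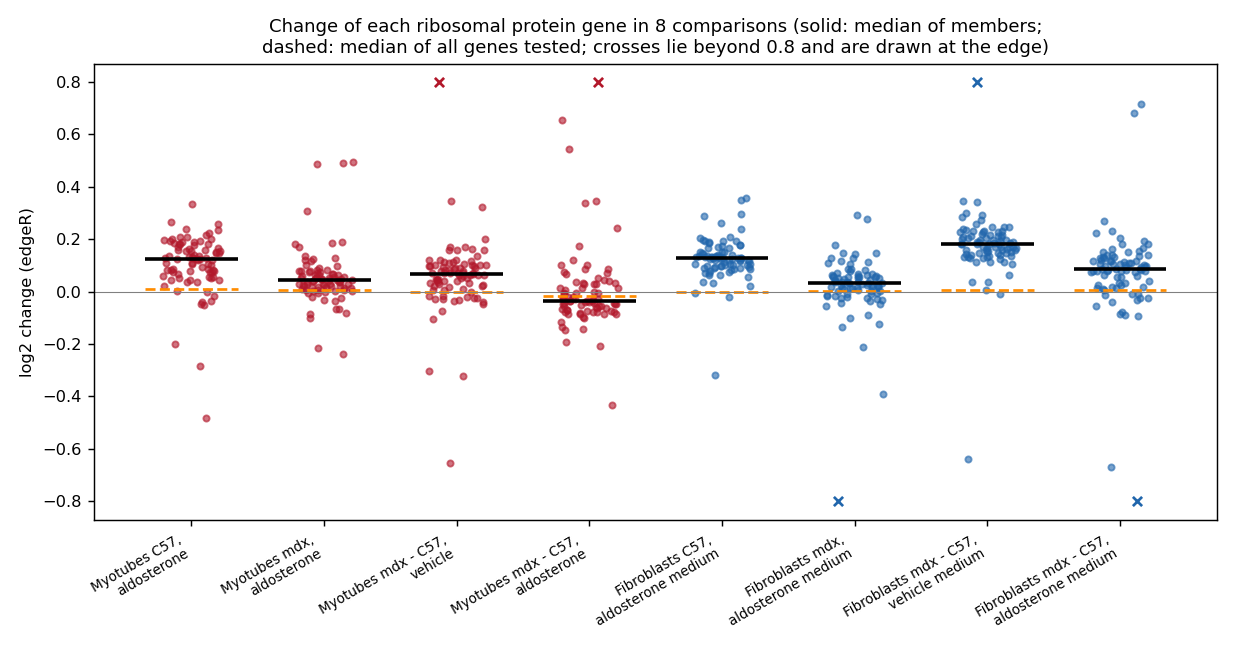
Log2 difference (vertical axis) of each tested ribosomal protein gene in 8 comparisons of treatment or genotype; points are genes (crosses lie beyond 0.8 and are drawn at the edge), solid lines the members' median and dashed lines the median of all genes tested. The members' medians run from -0.03 in the genotype comparison of aldosterone myotubes, where library totals gave 0.05, to 0.18 in that of vehicle-medium fibroblasts.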

How the data were processed

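Poly(A) RNA-seq counts per gene were deposited by the authors for 24 libraries, made with featureCounts 1.5.0-p3 on mm39 per the submitters' processing notes. Aligner, annotation and treatment of reads with several matches: not given in the sources used here. FPKM, also deposited, equal these counts divided by gene length and a constant per library, and served to compare genes by length. No column of other samples was present (0). Replicates are those numbered in the labels, and p-values measure the spread between them.

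Counts were tested with edgeR 4.0.16 (R 4.3.3): TMM factors, filterByExpr, robust quasi-likelihood test, and Benjamini-Hochberg adjustment over all genes kept, called at 0.05, with 12 libraries of 1 cell type or all 24 for cell types; SE is the log2 change over the root of F. DESeq2 1.42.0 was an alternative. Shares of counts used exact permutation tests (scipy 1.17.1). The model was tested on simulated data. In myotubes the pairing of same-numbered libraries was taken from the data (r = 0.359 to 0.704, all above 0.1), less surely for C57 numbers 2 and 3. The labels do not say what a number marks. Named genes were the paralogs and partners, the 4 members with the smallest adjusted p in each direction or, where none passed, the 3 of smallest p, the 5 highest and 5 lowest per length, up to 3 called genes of each pathway list, and the 5 genes most like Rpl3l; others, such as Rps27a, Rps19, Rpl17, Rplp0 in mdx fibroblasts and the further members called in the paired fits, were named after their values were seen. Rps4l, in that rule, is a pseudogene in the table and no member. Members and lists were chosen with earlier results of these data known. Sequences came from RefSeq promoter windows of GRCm38.p6, a build other than that of the counts. Some genes are not reported here.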

Additional observations from a re-analysis of the deposited data

Results flagged for a closer look

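Rpl39l libraries with aldosterone stood in opposite order by genotype in myotubes and fibroblasts. All 3 mdx myotube libraries were above all 3 C57 ones, and all 3 mdx fibroblast libraries below all 3 C57 ones. By edgeR the fibroblast difference was called (adjusted p = 0.00361) and the myotube difference was not (adjusted p = 0.235). These myotube libraries had 9 to 144 counts of Rpl39l each. The share of all genes without overlap in these comparisons is not given here. The genotype difference in myotubes minus that in fibroblasts was 3.35 on the log2 scale (SE 0.74, adjusted p = 0.0585 by edgeR over all genes), and so it missed the adjusted threshold. The opposite directions were seen in these values before the difference was tested on them.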

How the results depend on the processing

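Of the log2 changes of named members, 0 turned sign past the threshold. Under other settings 897 kept their status, called or not called, 24 gained a call and 2 lost one. Without a library or pair 1437 kept their status, 26 gained a call and 4 lost one. A change of sign in a gene called in neither fit is counted as kept. For example, Rpl39l between the mdx cell types ran from -0.53 to 0.31. With the replicate block 6 members were called for C57 myotubes and 7 for the mean; it changed no other count. Leaving out 1 pair from the block gave 0 to 11 in C57, 0 to 1 in mdx (Rps12, lower, without pair 2) and 1 to 15 for the mean. In fibroblasts not every same-numbered pair correlated above 0.1 (r = -0.018, 0.121 and 0.088 in C57; 0.172, 0.299 and 0.106 in mdx, where all 3 matched their own number best), so the numbers were not taken as pairs. The block gave 0 called members in each comparison, 0 to 3 for the mean with 1 number left out (3 without mdx replicate 2).

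The count for mdx vehicle fibroblasts against C57, 0 in the main analysis, was 1 with RLE factors, 1 with upper quartile scaling, 1 with library totals (chosen after seeing the data), 6 with no filter and 13 with DESeq2. With aldosterone medium it was 1 and became 2 with no filter, 3 with DESeq2 and 2 with library totals. For the mean response of fibroblasts it was 0, and 2 with DESeq2 and 0 to 1 with 1 library left out (1, Rplp0, without mdx aldosterone replicate 2). Between cell types the count was 52 in C57 and 39 in mdx, became 32 and 22 with library totals, and ran from 43 to 58 and from 32 to 43 with 1 library left out. In mdx, Rpsa was lower in myotubes at an adjusted p of 0.0395 by edgeR and missed the threshold with RLE factors (0.0562). Rpsa also missed it without mdx vehicle myotube replicate 2 (0.0680) or 3 (0.178), and without mdx vehicle fibroblast replicate 2 (0.0858) or 3 (0.130). Rpl39 in C57 missed it with library totals (0.146).

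Differences in the share of counts (percentage points) with 1 library left out ran from -0.0206 to 0.324 for aldosterone in C57 myotubes (below 0 without aldosterone replicate 2), from -0.0327 to 0.278 in mdx myotubes (below 0 without vehicle replicate 3), from -0.0675 to 0.189 in mdx fibroblasts (-0.0675 without aldosterone replicate 3, -0.0455 without vehicle replicate 1 and -0.0038 without aldosterone replicate 2) and from -0.277 to 0.0312 between cell types in mdx (0.0312 without myotube replicate 3 and 0.00033 without fibroblast replicate 3). The last was 0.0760 over counts outside mitochondrially encoded genes. The mean fibroblast response ran from 0.0753 to 0.203, and without mdx aldosterone replicate 1 its exact permutation p was 0.03. The cause of these shifts was not tested. Rpl3l, Rpl39l, Rpl36al and Rps10 rest on few counts, which limits their precision.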
